A study of Mus musculus with 8 samples.

Results

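The genes described here encode the receptors through which neurons sense glutamate, together with the auxiliary subunits and a scaffold that travel with those receptors. They were read from RNA-seq of the nucleus accumbens, the ventral striatal region known for its part in reward. The members were 34 genes chosen by symbol: 4 AMPA, 7 NMDA, 5 kainate and 1 delta receptor subunit, 7 metabotropic receptors, 7 AMPA auxiliary subunits, 2 kainate auxiliary subunits and the scaffold Grip1. All 34 were found among the 22337 genes of the deposited table. The list was written with earlier results of these data known. The samples were 4 libraries from male C57BL/6 mice given morphine, an opioid acting mainly on the mu opioid receptor, and 4 libraries from male C57BL/6 mice given saline. The series concerns chronic morphine exposure. The labels state no dose, schedule, age or time of dissection. They do not say that each library came from its own mouse. The p-values here therefore set the difference between the groups against the spread between libraries, and part of that spread may be technical.

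AMPA receptors carry most of the fast excitatory current in the brain, and NMDA receptors admit calcium when glutamate and depolarisation coincide. Kainate receptors act on both sides of the synapse, and metabotropic receptors signal through G proteins. In the nucleus accumbens many of these receptors sit on medium spiny neurons, which receive glutamate from cortex, hippocampus, amygdala and thalamus. Some members, described below, act on presynaptic terminals or are also made by astrocytes. AMPA receptor composition in the nucleus accumbens is a classic readout of drug exposure.

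Levels were given in FPKM, the number of fragments scaled to transcript length and to the mapped fragments of the library. On this scale levels can be set side by side between genes. Low values of genes with a single annotated transcript fell on whole fragments, and their spacing put the depth at about 13900000 to 27000000 fragments in the morphine libraries and 14300000 to 24600000 fragments in the saline libraries. Saline replicate 3 stood apart. The summed FPKM of 17 markers of striatal projection neurons, the medium spiny neurons of the labelled tissue, was 276 to 432 in the morphine libraries, against 1098.8 to 1321.5 in saline replicates 1, 2 and 4 and 5360.3 in saline replicate 3. That of 11 markers of cortical glutamatergic neurons was 263 to 313 in the morphine libraries, against 226 to 238 in saline replicates 1, 2 and 4 and 79.8 in saline replicate 3. No marker of either list was listed at 0 in every library. Of the striatal markers 13 of 17 tested were past the threshold, all lower with morphine. Of the cortical markers 1 of 10 tested was past it, higher with morphine. The summed level of 7 astrocyte markers was 1218.2 to 1573.9 FPKM in morphine and 1684.6 to 2286.9 FPKM in saline, and 1 of the 7 passed, lower with morphine. Of the markers tested, 2 of 6 for endothelium and 1 of 8 for GABAergic and cholinergic interneurons also passed as lower, and 0 of 7 for oligodendrocytes, 0 of 4 for their precursors and 0 of 6 for microglia passed. The part of these cell markers in the results below was not tested. In bulk tissue fewer cells of a type and less RNA per cell cannot be told apart.

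No member of the family passed the test, but several subunits were separated between the groups. Of the 34 members 30 reached 1 FPKM in 4 or more libraries and were tested. limma, on log2(FPKM + 1) with Benjamini-Hochberg adjustment over 12536 genes, called 0 of the 30, against a background of 2.52% of all tested genes (1.04% higher and 1.48% lower with morphine). The smallest adjusted p among them was 0.0625. At an unadjusted p under 0.05 there were 13 of 30 members (43.3%), 10 higher and 3 lower with morphine, where 20.1% of all tested genes lay under it (10% higher and 10.1% lower). Without the variance trend limma also called 0 members, and with a weight for each library it called 2 of 30, Cacng3 and Grm3, where 5.63% of all tested genes passed. In 9 of 30 tested members (30%) the morphine and saline values did not overlap, against 12.7% of all tested genes. In 6 of these every morphine value was the higher (background 6.56%) and in 3 every morphine value was the lower (background 6.1%). The members were chosen with earlier results of these data known, so these shares describe the list and are no test of it. The median log2 difference, morphine minus saline, was 0.12 over the 30 members and 0.01 over all tested genes.

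**Figure D1:**
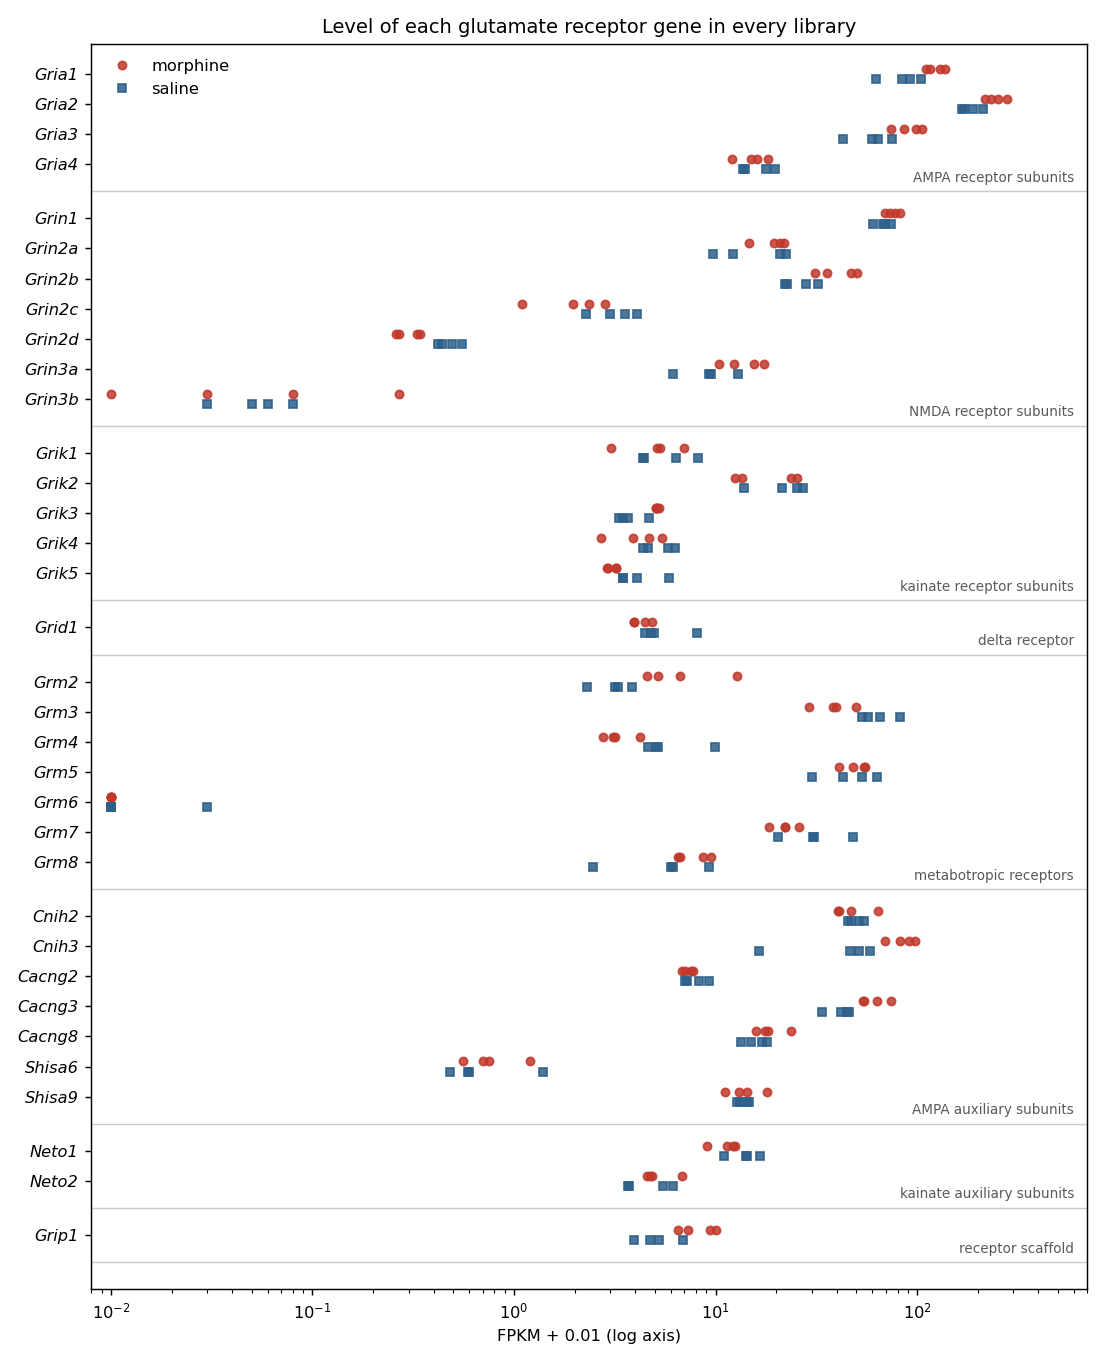
FPKM of each of the 34 members in every library, on a log axis after adding 0.01, with morphine libraries as circles above saline libraries as squares. Gria2 was the most abundant member, and Grm6 and Grin3b lay near 0 in both groups.

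**Figure D2:**
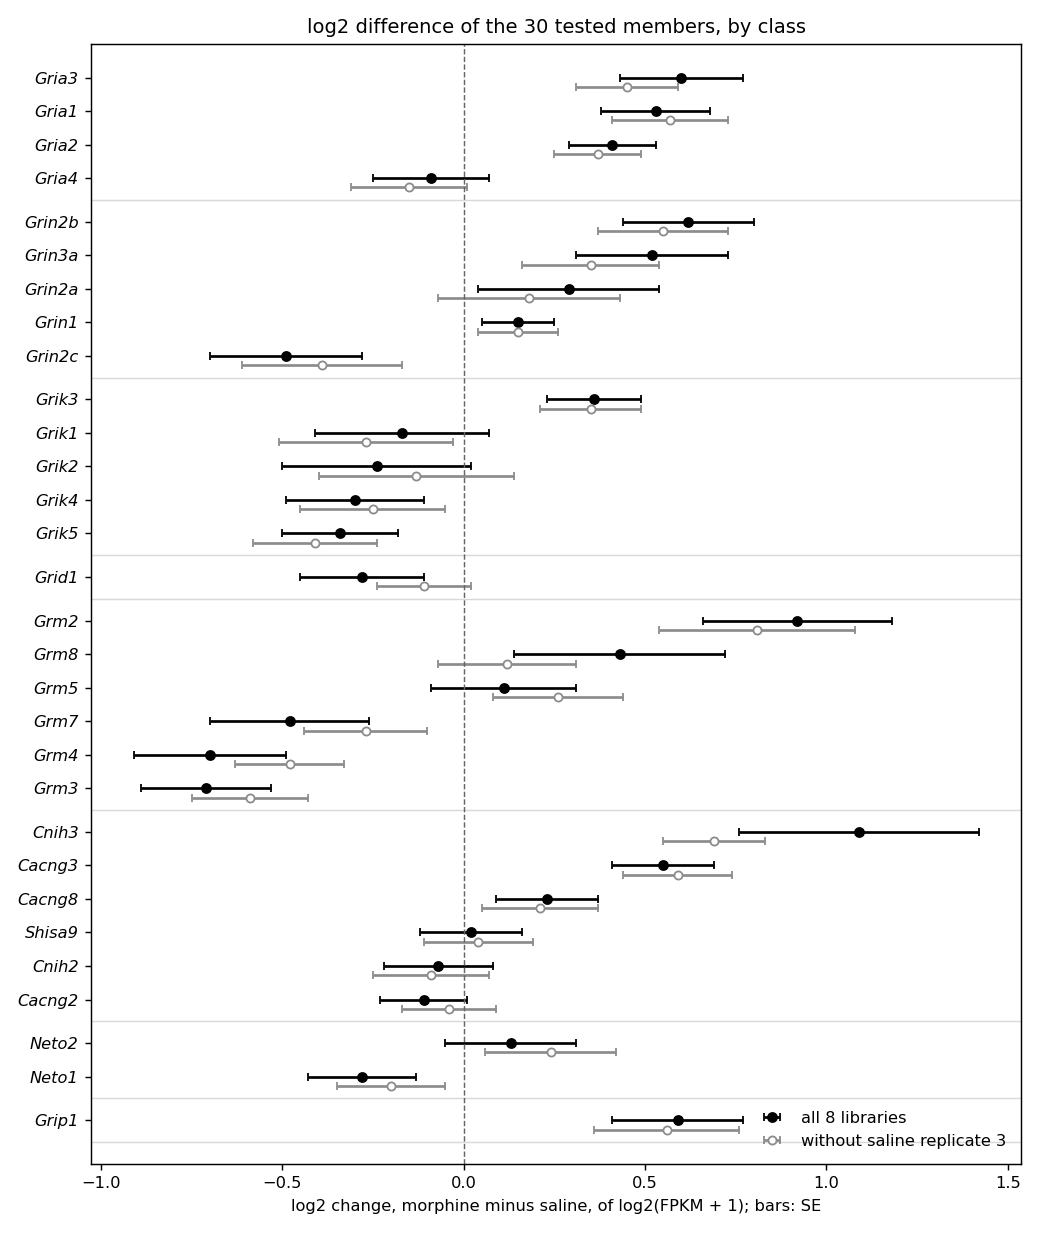
The log2 difference (morphine minus saline, with its SE) of the 30 tested members by class, for all 8 libraries (filled) and without saline replicate 3 (open). In each class of several members they lie on both sides of 0, from −0.71 for Grm3 to 1.09 for Cnih3.

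Among the AMPA receptor subunits, Gria1, Gria2 and Gria3 had higher means in the morphine libraries and Gria4 did not, and none of the 4 passed the test. Gria1 (ENSMUSG00000020524, chromosome 11, 57011387 to 57330244, plus strand, GRCm38) encodes the subunit most closely tied to activity-dependent insertion at synapses. It had 110.5, 129.3, 138.2 and 115.9 FPKM in morphine libraries, against 62.8, 84.2, 92.1 and 105.1 FPKM in saline libraries. Every morphine value was above every saline value, and the log2 difference of 0.53 ± 0.15 (SE) did not pass (limma adjusted p = 0.0912). Gria2 (ENSMUSG00000033981, chromosome 3, 80681450 to 80802835, minus strand) encodes the subunit that, once its RNA is edited, keeps the channel impermeable to calcium. It had 233.3, 280.4, 250.9 and 218.3 FPKM in morphine libraries, against 167.3, 190.2, 170.6 and 211.6 FPKM in saline libraries. These groups too were separate, though the lowest morphine and the highest saline library lay close together, and the log2 difference was 0.41 ± 0.12 (SE, limma adjusted p = 0.0924). Mitochondrially encoded genes took 6.1 to 7.9% of the summed FPKM in morphine and 9.1 to 12.6% in saline, and with them removed and the rest rescaled both Gria1 and Gria2 overlapped between the groups, with log2 differences of 0.49 and 0.36. Gria2 also overlapped with each library brought to the same upper quartile.

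Gria3 (ENSMUSG00000001986, chromosome X, 41400854 to 41678601, plus strand), which encodes a subunit that pairs with that of Gria2, had 85.9, 98.5, 105.8 and 74.0 FPKM in morphine libraries, against 59.7, 63.6, 43.0 and 74.8 FPKM in saline libraries. The groups overlapped at their edges, and saline replicate 3 was the lowest library. The log2 difference was 0.60 ± 0.17 (SE, limma adjusted p = 0.0905), and 0.45 without saline replicate 3. Gria4, the least abundant of the 4 subunits, averaged 15.3 ± 2.56 FPKM in morphine and 16.3 ± 2.92 FPKM in saline (SD, n = 4 each), with overlapping groups. Its share of the summed Gria1 to Gria4 level was 2.38 to 4.27% in morphine and 4.37 to 5.02% in saline, separate by a narrow gap. This share was not among the balances planned beforehand. The planned share, that of Gria2, was 49.5 to 53.5% in morphine and 51.5 to 55.1% in saline and overlapped. That of Gria1 was 24.7 to 27.3% in morphine and 20.7 to 28.8% in saline. That of Gria3 was 17.4 to 20.9% in morphine and 13.4 to 19.7% in saline. Both overlapped. Summed over the 4 subunits, the level was 426 to 524 FPKM in morphine and 304 to 411 FPKM in saline.

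The auxiliary subunits of AMPA receptors, which set their trafficking and gating, did not behave alike. The cornichon genes Cnih2 and Cnih3 encode related partners that slow channel closure. Cnih3 (ENSMUSG00000026514, chromosome 1, 181352628 to 181460641, plus strand) had 69.1, 91.0, 98.1 and 82.7 FPKM in morphine libraries, against 51.4, 46.7, 16.4 and 58.5 FPKM in saline libraries. All morphine values were the higher, and saline replicate 3 was far below the other saline libraries. Cnih3 averaged 85.2 ± 12.5 FPKM in morphine and 43.3 ± 18.5 FPKM in saline (SD, n = 4 each). The ratio of the means was 1.97 and the log2 difference 1.09 ± 0.33 (SE, limma adjusted p = 0.102). Without saline replicate 3 the log2 difference was smaller, 0.69 ± 0.14 (SE), but it passed (limma adjusted p = 0.0347, the lowest of all alternatives, which ran up to 0.237). In that comparison 2.14% of all tested genes passed, and Cnih3 was the single member among them. Cnih2 averaged 48.1 ± 11.0 FPKM in morphine and 49.7 ± 4.30 FPKM in saline (SD, n = 4 each) and overlapped. The ratio of Cnih3 to Cnih2, chosen after the values were seen, was 1.54 to 2.22 in morphine and 0.351 to 1.29 in saline.

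The transmembrane AMPA receptor regulatory proteins (TARPs) Cacng2, Cacng3 and Cacng8 are auxiliary subunits that bring the receptor to the synapse. Cacng3 (ENSMUSG00000066189, chromosome 7, 122670492 to 122769393, plus strand) was the most abundant of them and had the smallest p of all members. It had 54.7, 63.1, 74.1 and 53.9 FPKM in morphine libraries, against 33.8, 45.9, 44.6 and 42.0 FPKM in saline libraries. The groups did not overlap, and saline replicate 3 lay within the range of the other saline libraries. The log2 difference was 0.55 ± 0.14 (SE, limma adjusted p = 0.0625), and 0.59 without saline replicate 3. With a weight for each library Cacng3 passed at an adjusted p of 0.0497 (limma), the lowest of its alternatives, which ran up to 0.174. Cacng8 averaged 18.8 ± 3.43 FPKM in morphine and 15.8 ± 2.01 FPKM in saline, and Cacng2, the gene of stargazin, 7.28 ± 0.441 FPKM in morphine and 7.96 ± 1.05 FPKM in saline (SD, n = 4 each). Both overlapped between the groups. Shisa9, which encodes an auxiliary subunit first studied in the dentate gyrus, averaged 14.1 ± 2.82 FPKM in morphine and 13.7 ± 0.890 FPKM in saline (SD, n = 4 each). Its relative Shisa6 stayed under the filter, at 0.55 to 1.19 FPKM in morphine and 0.470 to 1.38 FPKM in saline (exact two-sided permutation p = 0.743).

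**Figure D3:**
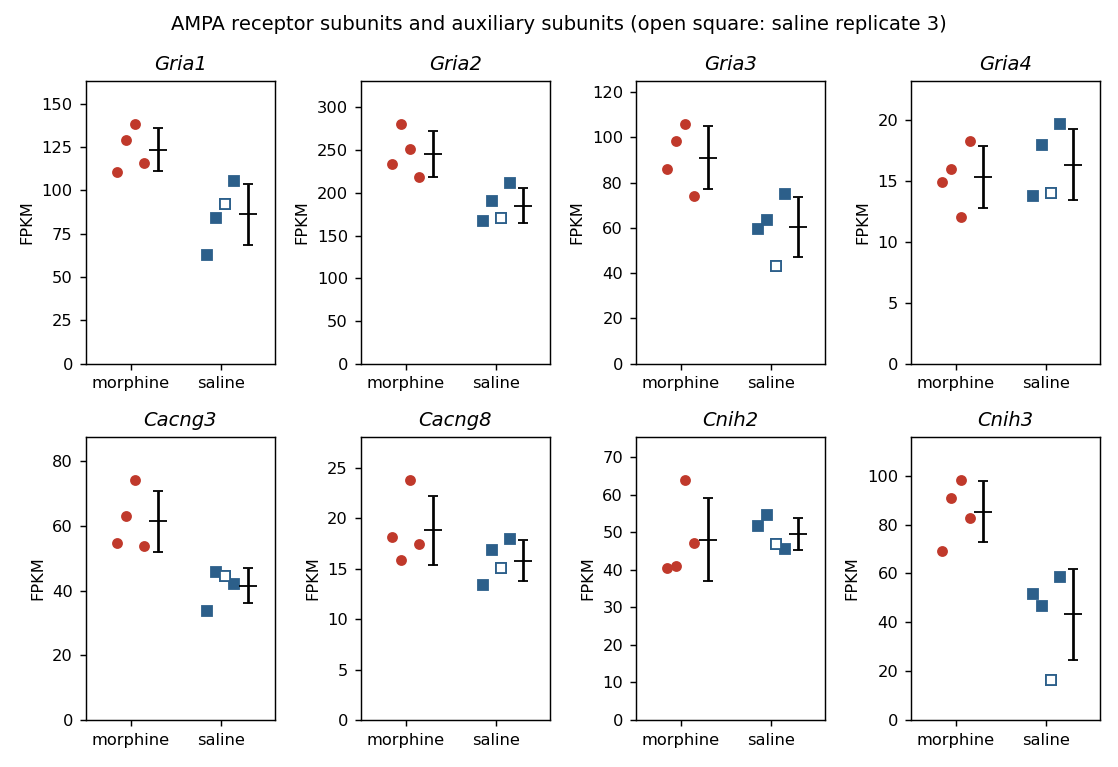
FPKM of the 4 AMPA receptor subunit genes and of 4 auxiliary subunit genes in every morphine library (circles) and saline library (squares, open for saline replicate 3), with mean and SD beside them. In the deposited values Gria1, Gria2, Cacng3 and Cnih3 are separate between the groups (Gria1 and Gria2 overlap once mitochondrially encoded genes are removed), and the open square is the lowest saline value of Gria3 and Cnih3.

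The promoter of Cnih3 is shown because this auxiliary subunit had the largest log2 difference among the members over all 8 libraries (without saline replicate 3 it was 0.69 for Cnih3 and 0.81 for Grm2). It comes from RefSeq (GRCm38.p6) and holds 250 bases before to 50 bases after the annotated start, on the sense strand, at chr1:181352378-181352677 (plus strand). Capitals mark matches, on either strand, to the CRE (TGACGTCA), its half-site (TGACG), the AP-1 site (TGANTCA), the Egr site (GCGNGGGCG) or the GC box (GGGCGG). The CRE contains its half-site, and the Egr site can overlap a GC box. They were chosen as sites of activity-regulated factors and of the general factor Sp1.
Cnih3: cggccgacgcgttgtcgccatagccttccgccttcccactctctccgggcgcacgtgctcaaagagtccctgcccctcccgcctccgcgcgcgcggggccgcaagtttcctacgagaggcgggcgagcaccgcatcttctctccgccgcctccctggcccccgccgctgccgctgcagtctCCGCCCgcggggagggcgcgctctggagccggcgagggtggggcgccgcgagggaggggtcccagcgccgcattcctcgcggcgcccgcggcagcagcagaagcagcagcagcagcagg
The window of Cnih3 held 1 GC box, on the opposite strand, and none of the other letter strings. Among 32851 promoter windows of the same length 35.7% held a GC box, 20.8% a CRE half-site, 7.81% an AP-1 site, 5.55% an Egr site and 1.79% a full CRE. A match is a string of letters and not a shown binding site.

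Among the NMDA receptor subunits Grin2b had the largest log2 difference of the 5 tested, and all 5 overlapped between the groups. Grin1 encodes the subunit every NMDA receptor needs. It had 69.2, 77.9, 81.9 and 73.6 FPKM in morphine libraries, against 60.2, 74.6, 68.0 and 69.2 FPKM in saline libraries, and its log2 difference was 0.15 ± 0.10 (SE, limma adjusted p = 0.439). Grin2b (ENSMUSG00000030209, chromosome 6, 135713233 to 136173511, minus strand) encodes a subunit that gives slow currents and is prominent in young synapses. It had 50.5, 31.2, 47.0 and 35.9 FPKM in morphine libraries, against 22.1, 28.2, 22.7 and 32.2 FPKM in saline libraries. Morphine replicate 2 lay just below saline replicate 4, and the other morphine values were above all saline values. The log2 difference was 0.62 ± 0.18 (SE, limma adjusted p = 0.0897).

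Grin2a, whose product gives faster currents, averaged 19.3 ± 3.16 FPKM in morphine and 16.3 ± 6.29 FPKM in saline (SD, n = 4 each). The ratio of Grin2a to Grin2b was 0.387 to 0.698 in morphine and 0.441 to 0.744 in saline and overlapped. The ratio of the summed Grin2a to Grin2d level to Grin1 was 0.719 to 1.03 in morphine and 0.579 to 0.827 in saline. It overlapped too. Grin3a, a subunit that lowers calcium entry, averaged 13.9 ± 3.11 FPKM in morphine and 9.45 ± 2.78 FPKM in saline (SD, n = 4 each), with a log2 difference of 0.52 ± 0.21 (SE, limma adjusted p = 0.205). Grin2c averaged 2.05 ± 0.732 FPKM in morphine and 3.23 ± 0.774 FPKM in saline (SD, n = 4 each), a log2 difference of −0.49 ± 0.21 (SE, limma adjusted p = 0.225). These pairs all overlapped. Grin2d lay under the filter and was separate: 0.320, 0.250, 0.330 and 0.260 FPKM in morphine libraries, against 0.540, 0.480, 0.410 and 0.430 FPKM in saline libraries. Its exact two-sided permutation p of 0.0286 is the smallest that 70 assignments of the 8 libraries can give, and it was not adjusted over genes. Any gene with separate groups gets this p, so it adds nothing to the separation. Without a filter on low values 9.68% of 19607 genes were separate. With the length of its longest GENCODE transcript, these values correspond to about 20 to 57 fragments per library. Exons of Grin2d overlap, over 233 bases, those of Gm45441 on the opposite strand. Grin3b was at 0 to 0.260 FPKM in morphine and 0.0200 to 0.0700 FPKM in saline, and its exons overlap those of Tmem259 on the opposite strand. The protocol names no strand marking, so reads of these overlaps cannot be assigned.

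The kainate receptor genes were low to moderate and pointed in different directions. Grik2, the most abundant of them, had 13.5, 23.7, 25.4 and 12.4 FPKM in morphine libraries, against 13.8, 21.2, 27.1 and 25.4 FPKM in saline libraries. The groups covered nearly the same range (log2 difference −0.24 ± 0.26 SE, limma adjusted p = 0.663). Grik3 had 5.10, 5.05, 5.21 and 5.07 FPKM in morphine libraries, against 3.48, 3.31, 3.66 and 4.66 FPKM in saline libraries. Its morphine values were almost equal to each other and all above the saline values (log2 difference 0.36 ± 0.13 SE, limma adjusted p = 0.154).

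Grik5, which encodes a high-affinity subunit that needs a partner such as that of Grik2, had 2.90, 3.2, 3.21 and 2.92 FPKM in morphine libraries, against 4.09, 5.84, 3.47 and 3.46 FPKM in saline libraries. All its morphine values were the lower (log2 difference −0.34 ± 0.16 SE, limma adjusted p = 0.264). Grik4, the other high-affinity subunit, averaged 4.17 ± 1.17 FPKM in morphine and 5.26 ± 0.907 FPKM in saline, and Grik1 averaged 5.09 ± 1.62 FPKM in morphine and 5.81 ± 1.79 FPKM in saline (SD, n = 4 each). Both overlapped. Neto1 and Neto2 encode the auxiliary subunits of kainate receptors. Neto1 had 11.4, 12.2, 12.5 and 9.05 FPKM in morphine libraries, against 11.0, 14.3, 16.6 and 14.2 FPKM in saline libraries. The groups overlapped through saline replicate 1 (log2 difference −0.28 ± 0.15 SE, limma adjusted p = 0.316). Neto2 averaged 5.23 ± 1.07 FPKM in morphine and 4.76 ± 1.26 FPKM in saline (SD, n = 4 each) and overlapped.

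Grid1, a delta receptor that links to presynaptic neurexins through cerebellins, had 4.48, 3.94, 3.95 and 4.81 FPKM in morphine libraries, against 4.48, 4.92, 8.11 and 4.77 FPKM in saline libraries. Saline replicate 3 stood far above all others, and the remaining libraries overlapped. The log2 difference was −0.28 ± 0.17 (SE, limma adjusted p = 0.399), and −0.11 without saline replicate 3.

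The metabotropic receptors of group II, Grm2 and Grm3, which couple to inhibitory G proteins, lay on opposite sides. Grm2 (ENSMUSG00000023192, chromosome 9, 106643095 to 106656082, minus strand) encodes a presynaptic autoreceptor that limits glutamate release. Its exons overlap, over 470 bases, those of Gm28111 on the opposite strand, and without strand their reads cannot be told apart. It had 4.57, 6.63, 5.18 and 12.8 FPKM in morphine libraries, against 3.85, 3.29, 2.29 and 3.15 FPKM in saline libraries. All morphine values were the higher, with morphine replicate 4 above the rest. The log2 difference was 0.92 ± 0.26 (SE, limma adjusted p = 0.0904), and between 0.64 and 1.08 when each library was left out in turn. Grm3 (ENSMUSG00000003974, chromosome 5, 9485541 to 9725170, minus strand), the metabotropic member with the highest mean over all 8 libraries (Grm5 was the higher in all 4 morphine libraries), is also made by astrocytes. It had 39.6, 49.6, 38.4 and 29.0 FPKM in morphine libraries, against 53.0, 65.8, 82.0 and 57.1 FPKM in saline libraries.

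All Grm3 values were lower in morphine, and saline replicate 3 was the highest library. Grm3 averaged 39.1 ± 8.43 FPKM in morphine and 64.5 ± 12.8 FPKM in saline (SD, n = 4 each), with a log2 difference of −0.71 ± 0.18 (SE, limma adjusted p = 0.0629). It was −0.59 without saline replicate 3. Grm3 passed with each library brought to the same upper quartile (limma adjusted p = 0.0465; 2.69% of all tested genes passed) and with a weight for each library (0.0258). Over all alternatives its adjusted p ran from 0.0258 to 0.16, and with each library scaled to the same total its groups overlapped. The ratio of Grm3 to Grm2, chosen after the values were seen, was 2.27 to 8.67 in morphine and 13.8 to 35.8 in saline. Grm2 and Grm3 together made up 33.4 to 38% of the summed metabotropic level in morphine and 38.1 to 47.9% in saline, ranges that nearly touched.

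**Figure D4:**
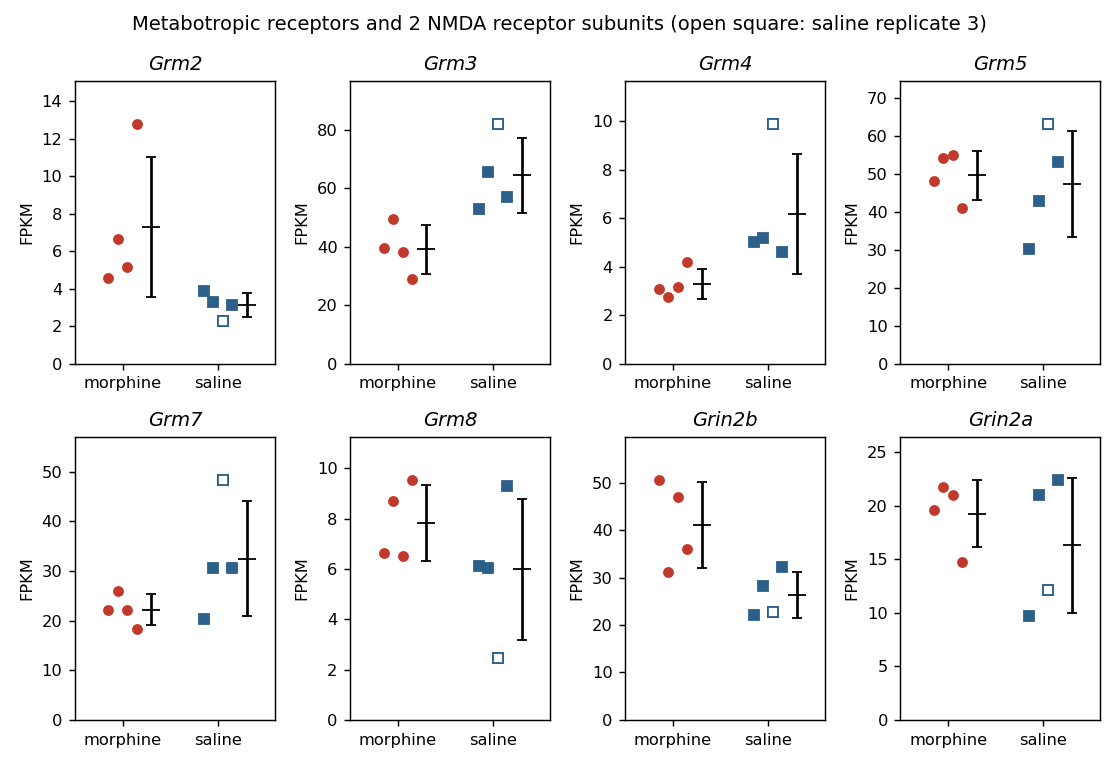
FPKM of 6 metabotropic receptor genes, Grin2b and Grin2a in every morphine library (circles) and saline library (squares, open for saline replicate 3), with mean and SD beside them. In the deposited values Grm2 is higher and Grm3 and Grm4 are lower in every morphine library than in every saline library (Grm3 overlaps with each library scaled to the same total). Saline replicate 3 holds the highest Grm3, Grm4, Grm5 and Grm7 values and the lowest Grm2 and Grm8 values.

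The promoters of Grm2 and Grm3 are shown because these related receptors had opposite log2 differences. They come from the same RefSeq table, with the same windows and the same meaning of capitals. That of Grm2 lies at chr9:106656060-106656359 (minus strand) and that of Grm3 at chr5:9725303-9725602 (minus strand). In both the last 50 bases follow the RefSeq start and do not open a GENCODE transcript, and the Grm3 window lies outside the GENCODE span given above.
Grm2: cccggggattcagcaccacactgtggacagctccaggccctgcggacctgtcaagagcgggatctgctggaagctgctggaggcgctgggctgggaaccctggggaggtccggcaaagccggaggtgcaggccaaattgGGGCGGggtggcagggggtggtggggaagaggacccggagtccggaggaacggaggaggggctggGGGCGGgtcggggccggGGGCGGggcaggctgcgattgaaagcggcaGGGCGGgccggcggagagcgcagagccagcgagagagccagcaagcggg
Grm3: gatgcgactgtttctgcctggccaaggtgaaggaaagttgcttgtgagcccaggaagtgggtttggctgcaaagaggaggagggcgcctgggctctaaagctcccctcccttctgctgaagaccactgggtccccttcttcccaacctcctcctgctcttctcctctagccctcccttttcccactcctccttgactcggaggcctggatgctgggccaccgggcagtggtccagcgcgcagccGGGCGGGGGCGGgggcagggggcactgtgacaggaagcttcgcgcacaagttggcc
The window of Grm2 held 4 GC boxes, and that of Grm3 held 2 GC boxes with 1 Egr site overlapping them. Neither held a CRE, its half-site or an AP-1 site.

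Group III receptors, which mostly sit on presynaptic terminals, and the group I receptor Grm5 filled the rest of the metabotropic level. Grm4 (chromosome 17, 27422387 to 27521403, minus strand) had 3.08, 2.75, 3.17 and 4.19 FPKM in morphine libraries, against 5.03, 5.19, 9.88 and 4.61 FPKM in saline libraries. All morphine values were the lower, and saline replicate 3 was well above the other saline libraries. The log2 difference was −0.70 ± 0.21 (SE, limma adjusted p = 0.107), and −0.48 without saline replicate 3. Grm7 averaged 22.1 ± 3.12 FPKM in morphine and 32.5 ± 11.6 FPKM in saline (SD, n = 4 each). Saline replicate 3 had the highest Grm7 value, 48.2 FPKM, and the log2 difference of −0.48 ± 0.22 (SE) was −0.27 without it. Grm8 averaged 7.83 ± 1.51 FPKM in morphine and 5.98 ± 2.80 FPKM in saline (SD, n = 4 each), with the lowest value, 2.46 FPKM, in saline replicate 3. Its log2 difference of 0.43 ± 0.29 (SE) was 0.12 without that library. Grm6, known from the retina, was listed at 0 in every morphine library and at 0.0200 FPKM in saline replicate 2 alone among the saline libraries.

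Grm5, which couples to phospholipase C and binds Homer scaffolds, averaged 49.5 ± 6.51 FPKM in morphine and 47.3 ± 14.1 FPKM in saline (SD, n = 4 each). Its level overlapped, but its share of the summed metabotropic level did not: 35.7 to 42.2% in morphine and 25.5 to 33.6% in saline. The share of group III was 24.4 to 27.9% in morphine and 26.6 to 29.1% in saline and overlapped. Grip1, a scaffold that binds the tails of the Gria2 and Gria3 products, had 6.48, 9.36, 7.25 and 10.0 FPKM in morphine libraries, against 3.94, 5.21, 4.72 and 6.90 FPKM in saline libraries. Only morphine replicate 1 lay below the highest saline library, and the log2 difference was 0.59 ± 0.18 (SE, limma adjusted p = 0.108).

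**Figure D5:**
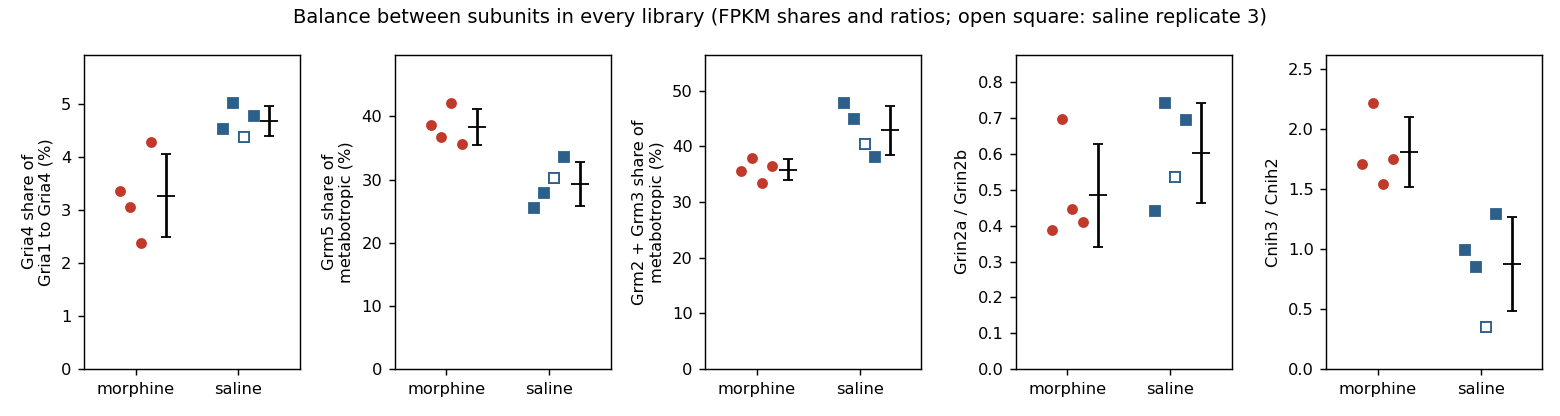
Shares and ratios of FPKM between members in every morphine library (circles) and saline library (squares, open for saline replicate 3), with mean and SD beside them. The Gria4 share, the Grm5 share, the group II share and the Cnih3 to Cnih2 ratio do not overlap between the groups. The gap is narrow for the Gria4 and group II shares, and the Cnih3 to Cnih2 ratio was chosen after the values were seen. The Grin2a to Grin2b ratio overlaps. So do the Gria2 share, the group III share and the ratio of the summed Grin2a to Grin2d level to Grin1, which are not drawn.

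The saline libraries were spread widely in these genes, and not through replicate 3 alone. Over the 32 members above 0 in every library, saline replicate 1 held the lowest saline value for 18, replicate 4 the highest for 15, and replicate 3 the highest for 10 and the lowest for 8. Without saline replicate 3, 9 of the tested members were still separate between the groups (16.7% of all tested genes were), and the median log2 difference of the 30 was 0.14.

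Among the genes that work beside these receptors 4 passed, all higher with morphine. Over all tested genes 1.04% passed as higher and 1.48% as lower. These lists too were chosen with earlier results of these data known, so the counts are no test of them. Of 22 tested postsynaptic scaffold genes 1 rose and 0 fell, and the median log2 difference was 0.06. It was Nsf, an ATPase that binds the Gria2 product and stabilises it at the membrane, at 404 ± 38.2 FPKM in morphine and 273 ± 34 FPKM in saline (SD, n = 4 each; limma adjusted p = 0.0449). Shank2 and Dlgap1, both scaffolds of the postsynaptic density, did not pass at 0.49 ± 0.14 and 0.75 ± 0.26 (log2 difference, SE). Without saline replicate 3 the log2 difference of each was 0.44. Of 20 tested further partners of AMPA receptors 1 rose and none fell, with a median of 0.18. It was Lrrtm1, a synaptic adhesion gene, at 37.3 ± 3.42 FPKM in morphine and 21.8 ± 4.92 FPKM in saline (SD, n = 4 each; limma adjusted p = 0.0381).

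Gsg1l, an AMPA auxiliary subunit outside the members, had 8.89 ± 2.10 FPKM in morphine and 20.0 ± 9.21 FPKM in saline (SD, n = 4 each), and missed the threshold (limma adjusted p = 0.0709). It stood at 33.5 FPKM in saline replicate 3 and at 13.3 to 18.1 FPKM in the other saline libraries. The log2 difference was −1.02, and −0.75 without saline replicate 3. Cpt1c, which acts on AMPA receptor export, did not pass at 0.38 ± 0.10 (log2 difference, SE), and had 0.42 without saline replicate 3. Of 11 tested genes of glutamate supply and uptake 1 rose and none fell, with a median of 0.05. It was Slc1a1, the neuronal glutamate transporter, at 49.0 ± 3.47 FPKM in morphine and 34 ± 3.65 FPKM in saline (SD, n = 4 each; limma adjusted p = 0.0435). The astrocyte transporter Slc1a2 and the glutamine synthetase gene Glul had −0.56 ± 0.15 and −0.40 ± 0.14 (log2 difference, SE) and did not pass. Without saline replicate 3 they had −0.59 and −0.50. Of the calcium relay genes, Nrgn, which binds calmodulin, did not pass at 0.65 ± 0.21 (log2 difference, SE), and had 0.46 without saline replicate 3. Without saline replicate 3, Lrrtm1 still passed at an adjusted p of 0.0155, and Nsf and Slc1a1 missed the threshold, at 0.0545 and 0.0547 (limma). Without morphine replicate 1 a single gene of these lists passed, and 0 passed without morphine replicate 2, 3 or 4 or without saline replicate 1 or 2.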

How the data were processed

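Per the labels' protocols, Trizol RNA was reverse transcribed with oligo-dT priming and template switching, and the PCR-amplified cDNA was sequenced on the NovaSeq platform. The authors deposited 1 table of FPKM values, 1 column per library, rounded to 2 decimals, per the file headers. The submitters' processing notes name HISAT2, RSEM, StringTie 1.3.1, Bowtie2 2.2.8 and fastp 0.18.0, and the build mm10, without roles or an annotation release. Replicates follow the titles of the samples. No pair of libraries shared more than 1.22% of the values above 0, so none was treated as a duplicate.

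Identifiers were matched to GENCODE M21 (GRCm38, the assembly of mm10; 22232 of 22337 matched). Depth was estimated from 222 to 290 low values per library of genes with 1 transcript: FPKM times length was spaced by whole fragments, and 83.8 to 92.5% of values held out of the estimate were within 0.2 of a whole number, against 40% for an even spread. Members were too long and their values too coarsely rounded to recover whole counts, so no count model was used; PCR copies are not told apart, and fragment numbers cover counting error only.

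Genes that reached 1 FPKM in 4 or more libraries (12536) were tested on log2(FPKM + 1) with limma 3.58.1 (R 4.3.3) with a variance trend, a two-sided p and Benjamini-Hochberg adjustment, at a threshold of 0.05. The log2 difference understates that of genes near an FPKM of 1. The fit was tested on simulated data. Members under the filter were compared by an exact permutation test where their mean reached 0.1 FPKM in a group (SciPy 1.17.1). The members and lists were chosen with earlier results of these data known. Every member is named; all library values are given for members past the threshold, members whose groups do not overlap, and in each class the member with the highest mean and that with the smallest p; of the companion lists, genes past the threshold and up to 3 with the smallest p. Promoters came from RefSeq (GRCm38.p6), which held 22 of the 34 members. Alternatives changed the pseudocount, the filter, the scaling, the trend, the weights and the block, or left out 1 library. Some items of the companion lists and promoters are not reported here.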

Additional observations from a re-analysis of the deposited data

Results flagged for a closer look

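In each group of 4 libraries a value was picked out when its gap to the nearest other value took a larger part of the group's range than Dixon's critical value allows. Over 67 groups 5 values were picked out; chance picks out about 1 in 20 groups. Grid1, the delta receptor gene, stood at 8.11 FPKM in saline replicate 3 and at 4.48 to 4.92 FPKM in the other saline libraries. Grm4, a presynaptic metabotropic receptor gene, stood at 9.88 FPKM in the same library and at 4.61 to 5.19 FPKM in the others. Neto2, the kainate auxiliary subunit gene, stood at 6.83 FPKM in morphine replicate 3 and at 4.55 to 4.84 FPKM in the other morphine libraries. Shisa6 stood at 1.38 FPKM in saline replicate 4 and at 0.47 to 0.59 FPKM in the other saline libraries. Grm6 stood at 0.02 FPKM in saline replicate 2, about 1 fragment, and was listed at 0 in the other saline libraries. With those at 0 any value above 0 is picked out, so the chance rate does not apply to Grm6.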

How the results depend on the processing

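The 16 named members that were tested kept their direction under all 18 alternatives in which they were tested. Of 284 values 280 kept their side of the threshold and 4 came to pass it: Cnih3 without saline replicate 3, Cacng3 with a weight for each library, and Grm3 with those weights and with the same upper quartile. Members past the threshold numbered 0 higher and 0 lower in the reported fit, 1 higher and 1 lower with library weights, and 0 higher and 1 lower with the same upper quartile. Leaving out each library gave 0 to 1 higher and 0 lower, and 9 to 15 members with separate groups where 9 were reported; the 15 came without saline replicate 4. The share of all tested genes that were separate was 14.8 to 19.9% in these comparisons of 7 libraries, 19.3% without saline replicate 4, and 12.7% with all 8. With an FPKM of at least 5 required, 6 of 23 members were separate (12.9% of all tested genes). Over all genes 316 passed (130 higher, 186 lower), 17 without a filter on low values, 706 with library weights, 5 with the replicate block, and 0 to 395 when each library was left out: 0 without morphine replicate 3, without morphine replicate 4 or without saline replicate 2 (1936, 2120 and 1955 at an unadjusted p under 0.05). The split was 75 higher and 262 lower with the same upper quartile, and 77 higher and 211 lower with mitochondrially encoded genes removed. In the companion lists 4 genes were higher and 0 lower; there were 0 higher without a filter or with the replicate block, 2 higher with the same upper quartile, with mitochondrially encoded genes removed or without the trend, and 5 higher and 2 lower with library weights. When each library was left out 0 to 4 were higher. The causes of these moves were not tested. The labels number the replicates alike in both groups, but same-numbered libraries did not clearly deviate together (correlations of −0.205 to 0.0522). With 4 libraries per group these correlations cannot exclude a pairing. When each library was left out, the difference of the Gria2 share (percentage points) lay between −2.31 and −0.957, that of the Grin2a to Grin2b ratio between −0.189 and −0.0722, and that of the group II share (percentage points) between −8.61 and −5.35. At the estimated depth Grm6, Grin3b and Grin2d rested on 0 to 57 fragments per library, and differences in them are limited by counting.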
